A study of Mus musculus with 2 samples.

Results

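The pentose phosphate pathway and the step that turns its product into PRPP were described through 9 genes in leukaemic B cells (B-ALL, acute lymphoblastic leukaemia) of the mouse. They are the oxidative genes G6pdx, Pgls and Pgd, the non-oxidative genes Rpia, Rpe, Tkt and Taldo1, and the PRPP synthetase genes Prps1 and Prps2. A gene was taken where the RefSeq accession of a non-control probe named it, which gave all 9 of 9 genes, among 20614 genes named on the array. Each of the 9 had 1 probe printed as 1 spot, so no second probe checks any of them.

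The leukaemic cells were sorted from bone marrow by SoNar, a fluorescent sensor of cytosolic NADH relative to NAD+ that is read as the ratio of its emission under violet and under blue excitation. The SoNar-high group had 1 array and the SoNar-low group had 1 array, both from mice labelled as C57BL strain and 8 weeks of age. The sources used here do not state how the leukaemia was made, whether mice were pooled or any further genotype, and the sample titles call the same groups N-myc-high and N-myc-low without explanation. The sensor follows NADH and not NADPH, the reduced carrier that the pathway makes. Since each group is a single array, differences have no check by replicates, and neither a test nor a p-value is given. The arrays were scanned in different sessions, so scan session and group cannot be told apart. In bulk RNA, fewer cells of a type and less RNA per cell cannot be told apart.

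The pentose phosphate pathway branches from glycolysis at glucose 6-phosphate. Its oxidative branch makes NADPH in the steps of glucose 6-phosphate dehydrogenase and 6-phosphogluconate dehydrogenase and ends in ribulose 5-phosphate. The non-oxidative branch is reversible and links pentose phosphates to the glycolytic intermediates fructose 6-phosphate and glyceraldehyde 3-phosphate. PRPP synthetase then adds pyrophosphate to ribose 5-phosphate, and PRPP is the sugar donor for purine, pyrimidine and NAD synthesis, on which dividing lymphoid cells draw.

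The annotated promoters of the members differ in the short motifs they hold. RefSeq windows of 250 bases before to 50 after each start (GRCm38.p6) were found for all 9 genes, with 2 starts for Pgd, and 4 motifs were searched on both strands. They were the E-box CACGTG, bound by MYC family proteins, the GC box GGGCGG, bound by SP1, the CCAAT box, bound by NF-Y, and TGACNNNGC, the core of the antioxidant response element bound by NRF2. Matches shared a base in the Tkt window and in none of the others. The GC box was in 8 of the 10 windows, against 35.7% of all 32851 windows of that length, and CCAAT in 4 of 10, against 37.4%. The GC box is made of G and C alone. These letters made up 51.3% to 67.3% of the members' windows, against a median of 52.7% over all windows, and the share of GC boxes was not adjusted for this. The response element core was in 2 of 10, against 12.4%, namely those of G6pdx and of the downstream start of Pgd, and the E-box in 0 of 10, against 7.15%. A match is a description of letters and not a binding site. The sequences are shown for Pgls, the member with the highest difference between the arrays, for Rpe and Prps1, the lowest, for Prps2, the paralogue of Prps1, and for G6pdx, the entry enzyme. Capitals mark motif matches.
Pgls promoter, chr8:71591934-71592233, plus strand: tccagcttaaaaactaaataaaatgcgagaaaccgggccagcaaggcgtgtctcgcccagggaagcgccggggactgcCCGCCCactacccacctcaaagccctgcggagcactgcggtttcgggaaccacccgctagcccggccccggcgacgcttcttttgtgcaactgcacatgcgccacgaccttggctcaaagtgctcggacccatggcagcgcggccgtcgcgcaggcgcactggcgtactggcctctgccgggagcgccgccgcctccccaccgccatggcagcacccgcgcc
Rpe promoter, chr1:66700581-66700880, plus strand: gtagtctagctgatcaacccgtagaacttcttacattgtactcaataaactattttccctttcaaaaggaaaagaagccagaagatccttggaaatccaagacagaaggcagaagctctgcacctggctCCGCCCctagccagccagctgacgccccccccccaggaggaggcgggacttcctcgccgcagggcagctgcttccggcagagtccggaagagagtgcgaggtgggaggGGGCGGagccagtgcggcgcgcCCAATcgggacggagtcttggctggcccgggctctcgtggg
Prps1 promoter, chrX:140456353-140456652, plus strand: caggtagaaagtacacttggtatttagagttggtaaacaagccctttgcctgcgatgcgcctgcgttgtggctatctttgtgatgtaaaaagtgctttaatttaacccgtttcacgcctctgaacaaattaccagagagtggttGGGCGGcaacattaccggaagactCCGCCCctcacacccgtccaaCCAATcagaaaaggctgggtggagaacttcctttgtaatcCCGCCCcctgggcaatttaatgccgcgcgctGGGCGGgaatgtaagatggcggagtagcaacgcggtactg
Prps2 promoter, chrX:167382700-167382999, minus strand: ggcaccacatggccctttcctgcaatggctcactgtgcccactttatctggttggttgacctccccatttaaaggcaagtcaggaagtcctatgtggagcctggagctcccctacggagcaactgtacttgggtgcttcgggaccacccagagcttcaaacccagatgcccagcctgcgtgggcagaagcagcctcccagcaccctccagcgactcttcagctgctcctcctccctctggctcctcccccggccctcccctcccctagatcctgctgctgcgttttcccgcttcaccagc
G6pdx promoter, chrX:74428831-74429130, minus strand: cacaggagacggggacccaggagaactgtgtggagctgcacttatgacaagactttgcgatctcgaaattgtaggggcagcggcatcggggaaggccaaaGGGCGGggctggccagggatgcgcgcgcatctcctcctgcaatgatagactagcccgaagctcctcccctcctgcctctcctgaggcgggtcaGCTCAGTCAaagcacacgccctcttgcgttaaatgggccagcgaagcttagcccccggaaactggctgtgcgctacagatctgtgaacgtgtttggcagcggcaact
In these windows the Prps1 promoter held 4 GC boxes and 1 CCAAT box, while the Prps2 promoter held 0 matches of the 4 motifs. The Rpe promoter held 2 GC boxes and 1 CCAAT box, the Pgls promoter 1 GC box, and the G6pdx promoter 1 GC box and 1 response element core.

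All 9 members were well above background on both arrays, as were 51.0% of the named genes; detection on the SoNar-high array alone held for 0 of 9, against 26.5%, and detection on the SoNar-low array alone likewise for 0 of 9, against 0.0534%. Their signals ran from 613 to 26368 on the SoNar-high array and from 774 to 28339 on the SoNar-low array, far over the lowest detected signals of 19.7 and 46.4. No member reached a 2-fold difference: 0 of 9 were at least 2-fold higher in SoNar-high cells, against 4.87% of 10515 genes measured on both arrays, and 0 of 9 at least 2-fold lower, against 1.68%. Log2 differences are SoNar-high minus SoNar-low after each array's 75th percentile signal (525 on the SoNar-high and 475 on the SoNar-low array) was subtracted on the log2 scale. A gene with equal processed signals on both arrays therefore has a difference below 0. Over all measured genes the median difference was -0.17, with the middle 50% from -0.47 to 0.20. Differences below 0 were found for 7 of 9 members and for 63.2% of all measured genes.

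In the oxidative branch the differences lay from -0.18 to 0.46. G6pdx, glucose 6-phosphate dehydrogenase, commits glucose 6-phosphate to the pathway and makes its first NADPH. It had a processed signal of 1939 on the SoNar-high array, against 1896 on the SoNar-low array, a log2 difference of -0.11. Pgd, 6-phosphogluconate dehydrogenase, makes the second NADPH and releases carbon dioxide, and had signals of 6039 on the SoNar-high and 6200 on the SoNar-low array, a log2 difference of -0.18. Both NADPH-making genes lay close to the median of all genes, with 54.4% of measured genes below G6pdx and 48.7% below Pgd. Pgls, the lactonase between them, makes no NADPH. It had a signal of 1744 on the SoNar-high array, against 1149 on the SoNar-low array, and a log2 difference of 0.46, the highest of the 9, with 85.5% of genes below it.

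In the non-oxidative branch the differences lay from -0.83 to 0.11. Rpia isomerises ribulose 5-phosphate to ribose 5-phosphate and had signals of 926 on the SoNar-high and 774 on the SoNar-low array, a log2 difference of 0.11. Rpe, the epimerase that makes xylulose 5-phosphate from the same substrate, had signals of 613 on the SoNar-high and 982 on the SoNar-low array. Its log2 difference of -0.83, or 1.77-fold lower in SoNar-high cells, was the lowest of the 9, with 5.07% of measured genes below it. The enzymes of the branch point from ribulose 5-phosphate thus stood on opposite sides of the median of all genes.

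Tkt, transketolase, moves carbon pairs between sugar phosphates with thiamine diphosphate as cofactor. Its signals were 26368 on the SoNar-high and 28339 on the SoNar-low array, a log2 difference of -0.25. Taldo1, transaldolase, moves dihydroxyacetone units and had signals of 5429 on the SoNar-high and 7439 on the SoNar-low array, a log2 difference of -0.60. Taldo1 was thus 1.52-fold lower in SoNar-high cells, with 15.7% of measured genes below it, while Tkt had 43.0% below it.

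Of the PRPP synthetase genes, Prps1 was the lower. Its signals were 4748 on the SoNar-high and 7401 on the SoNar-low array, a log2 difference of -0.79, or 1.72-fold lower in SoNar-high cells, and 6.33% of genes lay below it. Prps2, the isoform whose translation is known to be raised by MYC, had signals of 3066 on the SoNar-high and 3401 on the SoNar-low array, a log2 difference of -0.29, with 39.3% of genes below it. The difference of Prps1 was thus lower than that of Prps2 by the size of a log2 value of -0.49, and in both isoforms the SoNar-high signal was the smaller.

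**Figure D1:**
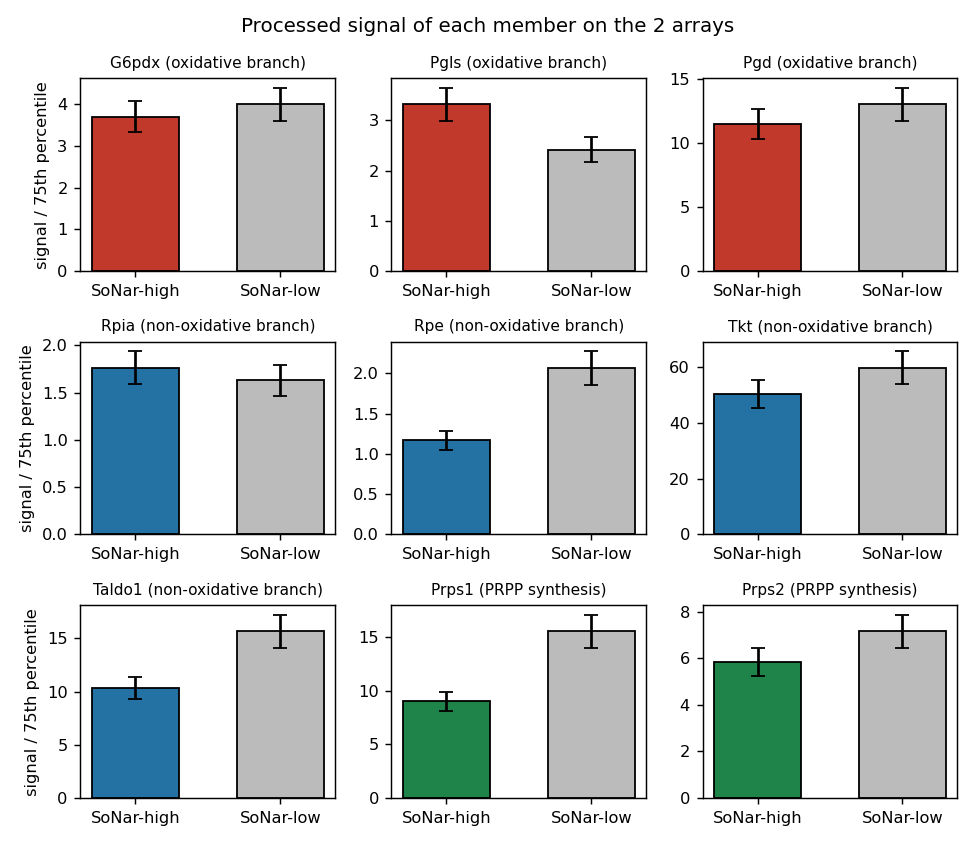
Signal of each member as a multiple of its own array's 75th percentile, on the SoNar-high array (coloured bar) and the SoNar-low array (grey bar), 1 array each; bars start at 0, error bars are the scanner software's error of 1 spot, and each panel has its own axis because levels of different probes cannot be compared. Pgls and Rpia have the taller SoNar-high bar, and in Pgls, Rpe, Taldo1, Prps1 and, narrowly, Prps2 the error bars of the 2 arrays do not overlap. The error bars are close to 10% of the signal in every panel and are not a scatter between spots.

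X-linked genes make up 3 of the 9, namely G6pdx, Prps1 and Prps2. The median difference of the 331 measured X-linked genes was -0.30, close to Prps2, with G6pdx above it and Prps1 below it.

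The oxidative branch had a median difference of -0.11 and the non-oxidative branch of -0.42, so the oxidative median was higher by 0.31 on the log2 scale. Of the 12 pairs of an oxidative with a non-oxidative gene, the oxidative gene had the higher difference in 10. The exceptions were G6pdx and Pgd against Rpia, with gaps of -0.22 and -0.30, and the groups overlapped. The widest gap was Pgls against Rpe, at 1.28, and the narrowest Pgd against Tkt, at 0.07. For the NADPH-making genes alone, G6pdx and Pgd, the gap to the non-oxidative median was 0.28, and they were higher in 6 of 8 pairs. The PRPP synthetase genes had a median of -0.54. These medians hold 2 to 4 genes each, and genes are not replicates of a condition.

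**Figure D2:**
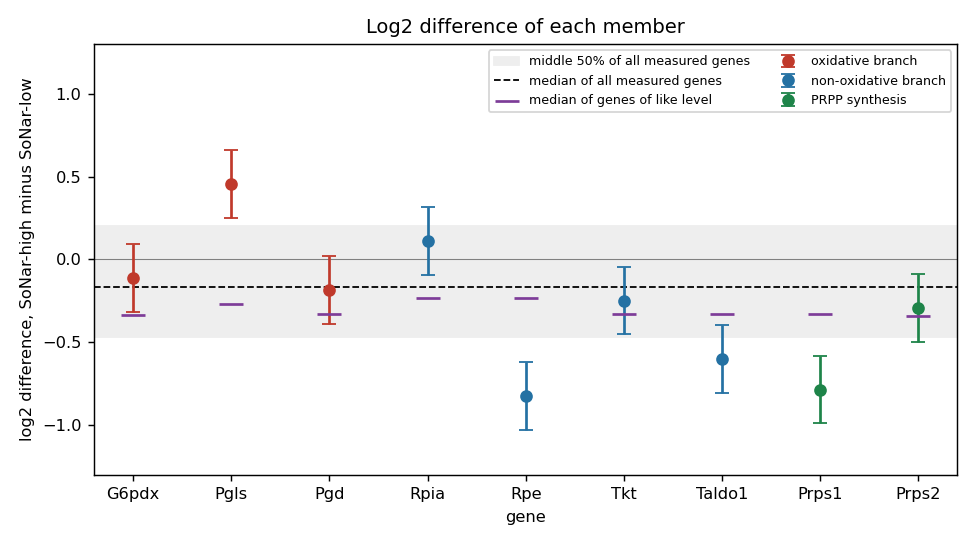
Each member's difference on the log2 scale (SoNar-high minus SoNar-low), with the scanner software's error of the difference as bars, the median of all measured genes (dashed line, -0.17), their middle 50% (grey band) and the median of genes of like level (purple marks). Pgls lies above the band, and Rpe, Taldo1 and Prps1 lie below it.

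The software's error and the scatter between spots and between probes set the size of these differences in scale. The scanner software gave each member an error close to 10% of its signal, which is 0.20 for each log2 difference. The SD between repeat spots of 1 probe was 0.15 at the median of 193 repeated probes. Different probes of a gene lay further apart: in 674 genes with 2 probes at least as bright as the dimmest member, the log2 differences of the pair were 0.34 apart at the median and 0.88 apart at the 90th percentile. Relative to the median of all genes, 4 of 9 members exceeded that median gap, namely Rpe at -0.66, Pgls at 0.62, Prps1 at -0.62 and Taldo1 at -0.43. The same held for 48.6% of all measured genes and 43.1% of the 4640 at least as bright as the dimmest member. The 90th percentile was exceeded by 0 of 9, against 10.3% of all measured genes and 2.82% of the 4640 at least as bright as the dimmest member. The gap between the oxidative and non-oxidative medians, 0.31, or 0.28 for the NADPH-making genes alone, was also below 0.34. A gap between medians of several genes is another measure than a gap between 2 probes.

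The difference between the arrays also moved with signal level. The measured genes were split into 10 equal groups by mean level, from group 1, the dimmest, to group 10. Group 2 had a median difference of 0.18 and group 10 of -0.33, and all 9 members lay in groups 6 to 10. Against the median of their own group, the members' median difference was 0.08 and not below 0, and Pgls was at 0.73, Rpia at 0.34, G6pdx at 0.22, Pgd at 0.15, Tkt at 0.08 and Prps2 at 0.05. Rpe at -0.60, Prps1 at -0.45 and Taldo1 at -0.27 remained below 0 on this scale. The gap between oxidative and non-oxidative medians was 0.31 on this scale too. This comparison by level was added after the data were seen.

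**Figure D3:**
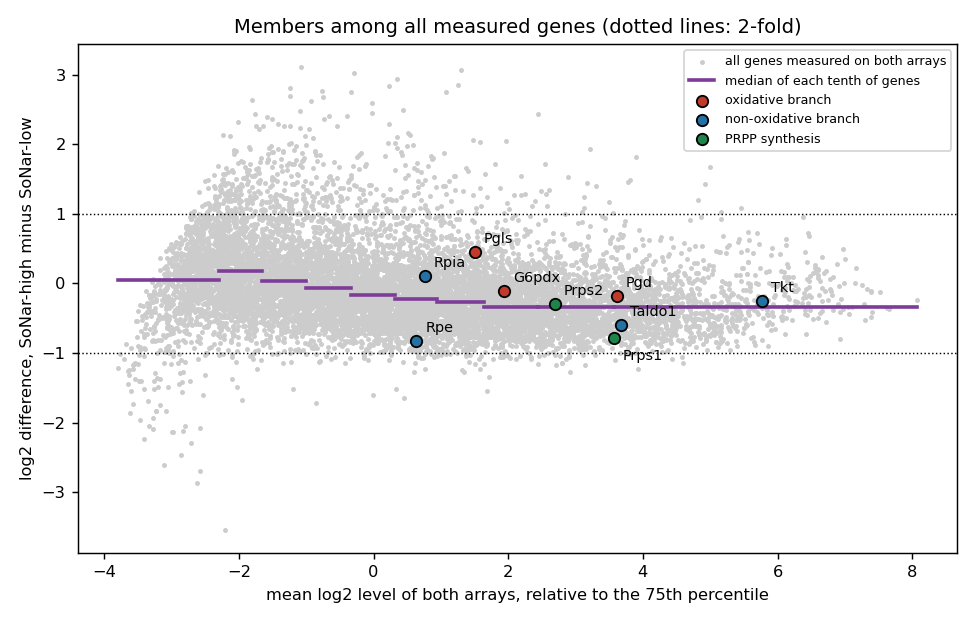
Log2 difference (SoNar-high minus SoNar-low) against the mean log2 level of both arrays for the 10515 genes measured on both (grey), with the median of each of 10 groups of genes by level (purple) and the 9 members (coloured). All members lie inside the dotted lines at a 2-fold difference, and the medians are lower among brighter genes.

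The counts of genes past 2-fold, and the sign of small differences, depend on the scaling. Median scaling lowered every difference by the same amount, giving a shift of -0.61, and took all 9 members below 0 and 3 of them (Prps1, Rpe and Taldo1) past a 2-fold lower value. Of all genes with a 2-fold difference, 74.3% were higher in SoNar-high cells in the main scaling and 4.03% with median scaling. The same share was 45.4% in the authors' deposited table, 52.4% with quantile normalization and 92.3% where the percentile came from spots that both arrays detected. Relative to the median of all genes, Pgls stayed above 0 and Rpe, Prps1 and Taldo1 stayed below 0 in the main setting and all 11 alternatives. The scalings by median or percentile cannot alter these relative values. Rpia was above 0 in all but detection on at least 1 array, where it was at -0.03. G6pdx, Pgd, Tkt and Prps2 took both signs over the settings, so no direction can be given for them.

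**Figure D4:**
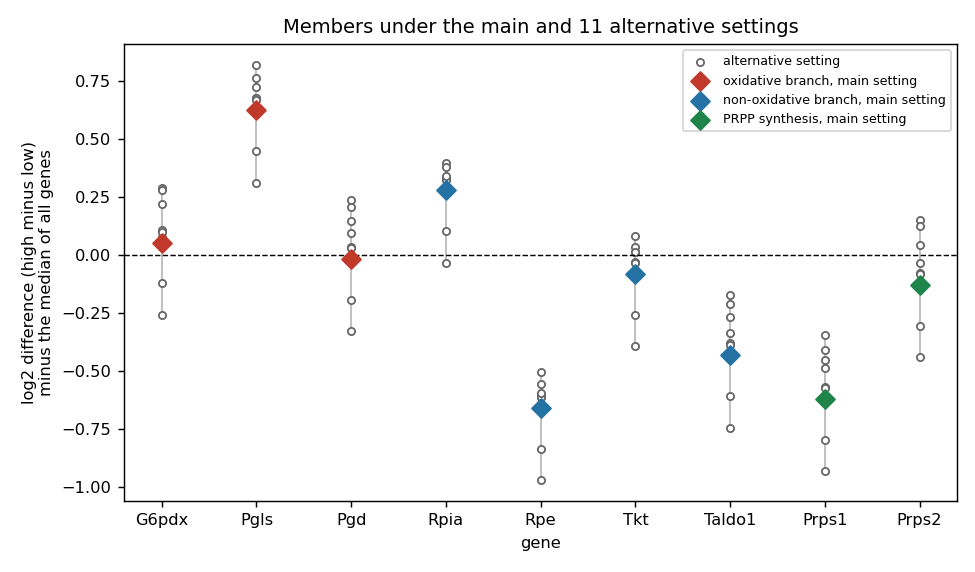
Log2 difference of each member (SoNar-high minus SoNar-low) minus the median of all genes in the same setting, for the main setting (diamonds) and 11 alternatives (open circles). Pgls, Rpe, Prps1 and Taldo1 keep 1 side of the dashed line at 0, while G6pdx, Pgd, Tkt and Prps2 lie on both sides.

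Genes next to the pathway were taken from a fixed list of 15, of which 11 were measured on both arrays. At least 2-fold higher was 1 of the 11, against 4.87% of all measured genes, and at least 2-fold lower 0, against 1.68%. Their median difference was 0.02, against -0.17 for all genes. The 1 past 2-fold was Pgm2, with signals of 166 on the SoNar-high and 74.4 on the SoNar-low array and a log2 difference of 1.01. Pgm2 and Shpk lay in the dim level group 2, where 13.3% of genes were at least 2-fold higher. Against genes of that group Pgm2 was at 0.83 and Shpk at 0.55. Shpk, which phosphorylates sedoheptulose, was at 0.73, Dera, which cleaves deoxyribose 5-phosphate, at 0.66, and Xylb, xylulokinase, at 0.49. Idnk, gluconokinase, was at 0.09 and Rbks, ribokinase, at 0.02. H6pd, which makes NADPH inside the endoplasmic reticulum, was at -0.24.

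Tigar, which lowers fructose 2,6-bisphosphate and so favours flow into the pathway, had a difference of -0.73, with its 2 probes at -0.86 and -0.60. It is 1 of only 2 genes in that list with a second probe. The other is Prpsap1, a PRPP synthetase-associated protein that restrains the enzyme, at -0.28 with probes at -0.40 and -0.16. Prpsap2, its relative, was at -0.37, so both stood close to Prps2 and above Prps1.

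Close relatives of the members were in part undetected. Neither array had a signal well above background for Tktl1 and Tktl2, transketolase-like genes, or for Prps1l1. Prps1l3, a Prps1-like gene, had signals of 3742 on the SoNar-high and 3515 on the SoNar-low array and a difference of -0.05. G6pd2, a copy of G6pdx best known from the testis, had a signal of 93.7 on the SoNar-high array, against 45.5 on the SoNar-low array, where it was not well above background. In the main scaling it was at least 1.83-fold higher in SoNar-high cells. The bound sets the SoNar-high level against whichever was higher on the SoNar-low array, the lowest level detected there or that of the probe, and cross-hybridisation of G6pdx or Prps1 RNA with these copies was not tested.

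**Figure D5:**
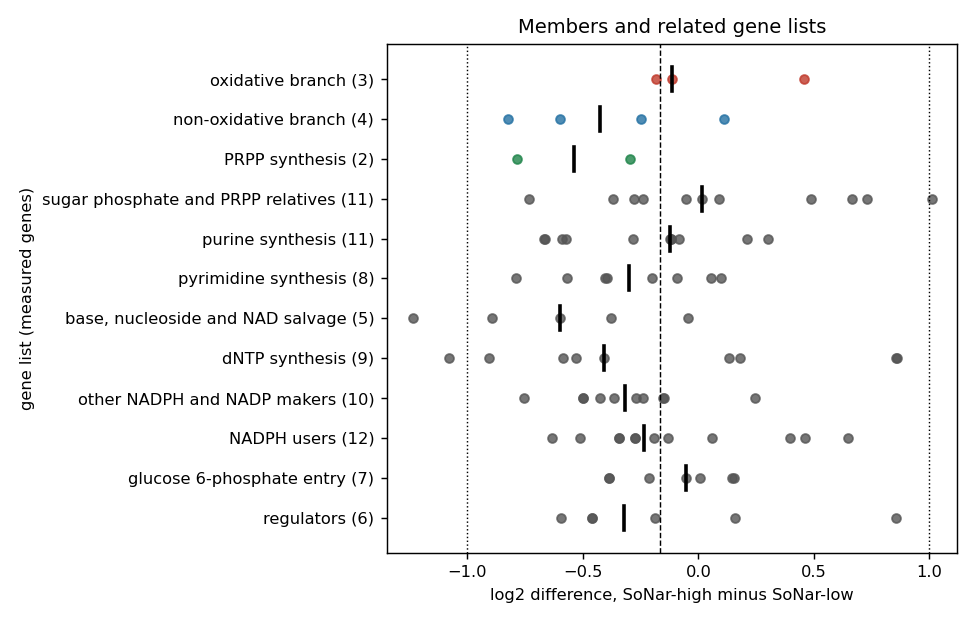
Differences on the log2 scale (SoNar-high minus SoNar-low) of the members and of the measured genes of 9 related lists, 1 point per gene, with list medians as black bars, the median of all genes (dashed line) and 2-fold differences (dotted lines). Pgm2 lies past the upper dotted line, and Uck1 and Dguok lie past the lower.

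Enzymes that use PRPP, or that act after it, were given as lists. Beside the counts of these lists, and of those that follow, stand 4.87% of all measured genes at least 2-fold higher and 1.68% lower. In purine synthesis all 11 genes were measured and 0 passed 2-fold in either direction, with a median of -0.12. Ppat, which takes PRPP into the first committed step, was the highest at 0.30, with both of its probes above 0, and Adss, which makes adenylosuccinate, the lowest at -0.67. In pyrimidine synthesis all 8 genes were measured and 0 passed 2-fold, with a median of -0.30. Nme2, a nucleoside diphosphate kinase, was the highest at 0.10, though its 2 probes, at -0.16 and 0.35, differed in sign. Ctps, which makes CTP, was the lowest at -0.79, with signals of 11503 on the SoNar-high and 17978 on the SoNar-low array.

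The salvage list held 8 genes, of which 5 were measured. By 2-fold or more, 0 were higher, against 4.87% of all measured genes, and 1 was lower, against 1.68%. The median of the 5 measured, -0.60, was the lowest of the related lists. All 5 of these differences were below 0, as were 63.2% over all genes. Against genes of like level the median was -0.26. The 1 past 2-fold was Uck1, a uridine-cytidine kinase that does not itself use PRPP, at -1.24, with signals of 5196 on the SoNar-high and 11077 on the SoNar-low array. Among the genes that do use PRPP, Hprt, which recovers hypoxanthine and guanine, was at -0.60, Aprt, which recovers adenine, at -0.05, and Nampt, which makes the NAD precursor NMN, at -0.89. The SoNar-high array alone detected Uprt, Naprt and Qprt, as it did 26.5% of all named genes, so they do not enter that median. In the main scaling Naprt was at least 1.49-fold higher in SoNar-high cells, while no direction can be given for Uprt and Qprt.

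In the dNTP list 9 of 10 genes were measured, with a median of -0.41. By 2-fold or more, 0 were higher, against 4.87% of all measured genes, and 1 was lower, against 1.68%. Tyms, thymidylate synthase, was the highest at 0.86 and Dguok, the mitochondrial deoxyguanosine kinase, the lowest at -1.08. The ribonucleotide reductase subunits differed in sign, with Rrm1 at 0.13 and Rrm2 at -0.59, both named for their role after their values were seen.

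NADPH sources outside the pathway were listed with related folate and malic enzymes and with genes of NADP synthesis, 15 in all. Not every gene of this list makes NADPH. No probe was named for Nnt. Of the list 10 were measured, 0 passed 2-fold, and the median was -0.32, against -0.11 for the oxidative branch. Aldh1l1, a folate dehydrogenase that makes NADPH, was the highest at 0.25 and Mthfd2l, a mitochondrial folate enzyme, the lowest at -0.75. Genes of NADPH use numbered 17, of which 12 were measured, 0 passed 2-fold and the median was -0.23. Cbr1, a carbonyl reductase, was the highest at 0.65 and Fasn, fatty acid synthase, the lowest at -0.64. For entry of glucose 6-phosphate and its competing glycolytic use, 7 of 9 genes were measured, 0 passed 2-fold and the median was -0.05. Pfkp, a phosphofructokinase, was the highest at 0.15, though its 2 probes, at -0.15 and 0.45, differed in sign. Hk2, the inducible hexokinase, was the lowest at -0.39.

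Of 11 genes known to regulate the pathway, 6 were measured and 0 passed 2-fold, with a median of -0.32. Sirt2, a deacetylase known to activate glucose 6-phosphate dehydrogenase in human cells, was the highest at 0.85. Nfe2l2, which encodes NRF2, was the lowest at -0.59. Mycn was undetected on both arrays, that is, not well above background. The SoNar-high array alone detected Myc, Srebf1, Pparg and Bach1, as it did 26.5% of all named genes. Myc at 25.1 and Srebf1 at 23.8 on that array lay below 46.4, the lowest signal detected on the SoNar-low array, so no direction can be given for them. In the main scaling Bach1 was at least 1.12-fold and Pparg at least 2.27-fold higher in SoNar-high cells.

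Markers of the labelled cells and of other marrow cells stood beside these values as follows, with sums of the signals of a list as multiples of each array's 75th percentile. Of all genes measured on both arrays, 4.87% were at least 2-fold higher. That share ran from 0.76% in level group 10 to 13.3% in level group 2. The SoNar-high array alone detected 26.5% of all named genes. Its lowest detected signal was 19.7, against 46.4 on the SoNar-low array. A dim gene can thus be detected on the SoNar-high array alone without being higher there. Of 15 B lineage markers 11 were measured, 1 of them at least 2-fold higher, with a sum of 78.4 on the SoNar-high and 92.3 on the SoNar-low array. Undetected on both were Igll1, Rag1, Rag2 and Il7r. Of 15 neutrophil markers with a probe 12 were measured, 11 of them above the median of all genes and 3 at least 2-fold higher, with a sum of 124 on the SoNar-high and 94.9 on the SoNar-low array. The erythroid list had 4 of 11 measured, 2 at least 2-fold higher, and sums of 29.7 on the SoNar-high and 49.3 on the SoNar-low array. Hemgn alone made up 27.0 of the SoNar-high and 48.0 of the SoNar-low sum. Without it the erythroid sums were 2.69 on the SoNar-high and 1.32 on the SoNar-low array, all 3 other measured genes were above 0, and 6 more were detected in SoNar-high cells alone. In the neutrophil list the SoNar-high array alone detected Mmp8, Mmp9 and Cxcr2, with signals of 27.3, 58.0 and 22.4 on that array. The T and natural killer cell list had 6 of 11 measured, 4 at least 2-fold higher, and sums of 3.61 on the SoNar-high and 4.09 on the SoNar-low array. Without Lck, its brightest gene and the 1 below 0, the sums were 1.98 on the SoNar-high and 0.951 on the SoNar-low array, with all 5 others above 0. Cd3g, Cd8a and Ncr1 were detected in SoNar-high cells alone, and Cd3d and Klrb1c in neither. The monocyte list had 2 of 7 measured, 1 at least 2-fold higher, and sums of 0.837 on the SoNar-high and 0.419 on the SoNar-low array. In that list 3 genes were detected in SoNar-high cells alone, and Ccr2 was undetected. The stromal and endothelial list had 5 of 8 measured, 2 at least 2-fold higher, and sums of 16.6 on the SoNar-high and 27.6 on the SoNar-low array. Without Alpl, its brightest gene and the 1 below 0, the sums were 1.81 on the SoNar-high and 1.24 on the SoNar-low array, with all 4 others above 0. Col1a2 and Cdh5 were detected in SoNar-high cells alone, and Cxcl12 in neither. The part of these cells in the members' differences was not tested.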

How the data were processed

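RNA of each group was hybridised to 1 Agilent 1-colour (Cy3) array. Per the file headers, the scanner output deposited by the authors gives an intensity per spot, after background subtraction and spatial detrending, with the software's error and flags. Feature Extraction is given as 11.0.1.1 in the headers and as 9.1 in the submitters' processing notes. The authors' deposited table holds log2 values. Its columns share a median of 5.90 and correlated with their own arrays at r = 0.995 (SoNar-high) and 0.994 (SoNar-low). With the other array they correlated less, at r = 0.968 (SoNar-high) and 0.957 (SoNar-low), so the direction of the table is settled. The steps behind its scale and centring stay unknown.

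Processed signals were put on the log2 scale and centred on the 75th percentile of the array. Of 43020 non-control spots, 72.9% on the SoNar-high and 44.8% on the SoNar-low array were well above background and 0 saturated. The 685 non-uniform or population outlier spots were removed, spots of a probe averaged, and a probe called detected where most spots were well above background. Probes detected on both arrays were averaged per gene. RefSeq accessions without version named 27109 of 39085 probes; 3 list symbols were updated through synonyms. The array annotation is of mm9 and the gene table of GRCm38.p6, so only promoter windows carry coordinates. The genes named are the 9 members with their probes, the neighbours of the pathway, and of each related list the highest, the lowest and those past 2-fold; others are named as chosen after their values were seen or to complete a role. With 2 arrays a pattern is 1 difference, so no genes were named for likeness of pattern. The members and lists were chosen with earlier results of these data known. Scripts were tested on simulated data. The alternatives were other scalings, normexp (offset 50, on the median spot signal), the filter on dim signals, use of the brightest probe, outlier spots kept, the authors' table and centring by level, the last added after seeing the data. Python 3.11.15, R 4.3.3 and limma 3.58.1 were used.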

Additional observations from a re-analysis of the deposited data

How the results depend on the processing

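No paired analysis was possible because neither group had more than 1 array, which also leaves none to omit. The gap between the oxidative and non-oxidative medians, 0.31, ran from 0.25 with normexp to 0.38 with quantile normalization, over the only 4 alternatives that could change it (these 2, the deposited table and centring by level). The other 7 leave gaps between members fixed, since a scaling subtracts 1 constant per array and each member has 1 spot. In the 4 that could, the oxidative gene was higher in 10 of 12 pairs, Pgls highest and Rpe lowest. The members' median relative to all genes, -0.08, was 0.15 after quantile normalization, 0.13 in the deposited table, 0.083 after centring by level, 0.03 with normexp, -0.26 with no filter on dim probes and -0.39 with detection on at least 1 array. The last 2 add dim genes by construction, and for the others the cause was not tested. Against 512 genes at least 2-fold higher, the count was 139 with median scaling, 806 with the percentile of spots that both arrays detected, 262 with normexp and 337 with the stricter filter. Where 1 detecting array was enough it was 3203, and 2775 with no filter. Against 177 lower genes, it was 3306, 67 and 60 with the first 3 of these and 1751 with no filter, 350 with quantile normalization and 430 in the authors' table. Scalings shift all genes alike and filters change which genes count; for quantile normalization, normexp and the deposited table the cause was not tested. The filters, the brightest probe and kept outliers cannot alter a member's value. Of 54 member values under the other 6 alternatives, 38 moved by at least the SD between repeat spots, 0.15. Among these 6, the 2 scalings by a constant and centring by level shift every member by construction. The count of 38 is thus not a measure of instability. Every member rests on 1 spot per array, and having 2 arrays limits the precision.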

Other observations

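The log2 differences below (SoNar-high minus SoNar-low) were chosen after they were seen and not tested. Dck, the cytosolic deoxycytidine kinase of nucleoside salvage, was at 0.86, while its mitochondrial relative Dguok was at -1.08. Of the uridine-cytidine kinases Uck1 was at -1.24 and Uck2 at -0.38. Each of these 4 values rests on 1 probe.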
